A study of Mus musculus with 19 samples.

Results

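The collagen family was taken as the rows of the deposited gene table whose symbol has the form Col, type number, a, chain number. The rule found 43 genes among 18639 gene symbols, and all 43 were found in the GENCODE M21 annotation of mm10. They fall into 8 fibrillar genes, 9 basement membrane genes, 7 cartilage genes and 19 genes of other types. The fibrillar genes are Col1a1, Col1a2, Col3a1, Col5a1, Col5a2, Col5a3, Col24a1 and Col27a1. The basement membrane genes are Col4a1 to Col4a6, Col7a1, Col15a1 and Col18a1, and the cartilage genes are Col2a1, Col9a1, Col9a2, Col9a3, Col10a1, Col11a1 and Col11a2, of which the type II and XI genes also code for fibrillar chains.

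Cells of the mouse cochlea, the hearing organ, were sorted by GFP before RNA sequencing. All mice were heterozygous for a knock-in that replaces 1 allele of Cx3cr1, which codes for a macrophage chemokine receptor, with GFP, so every group carried the allele and GFP-positive cells were called macrophages. Old mice were 12 to 14 months of age and young mice 1.5 months, and each isolate came from 1 mouse. The groups were old whole cochlea macrophages (n = 4 libraries), old whole cochlea nonmacrophages (n = 4), young whole cochlea macrophages (n = 2) and young whole cochlea nonmacrophages (n = 4). Young auditory nerve macrophages, auditory nerve nonmacrophages, lateral wall macrophages, lateral wall nonmacrophages and unsorted whole cochlea cells had 1 library each.

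Collagens are secreted or membrane-bound proteins whose chains wind around each other into a helix. Fibrillar chains build the cables of bone, tendon and vessel walls, type IV chains build the sheet of basement membranes, and further types coat fibrils, anchor membranes or form beaded and hexagonal networks. In the cochlea, type I is known from the bony capsule, types II, IX and XI from the tectorial membrane that overlies the hair cells, and Col4a3, Col4a4 and Col4a5 from basement membranes whose loss in Alport syndrome brings deafness. Macrophages are known chiefly for taking up and degrading collagen.

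Promoter windows are printed for 5 members on which the comparisons turn. Col1a2 and Col8a1 had the highest levels per kilobase of transcript in whole cochlea nonmacrophages, Col19a1 was the member called higher in old macrophages than in old nonmacrophages, and Col16a1 and Col23a1 were the members with the largest log2 differences between old and young macrophages. Each window holds the 250 bases before the RefSeq start of the gene in GRCm38.p6, read 5′ to 3′ on the strand of the gene. Capitals mark the TATA box motif (TATAAA), the motif CCAAT and the GC box motif (GGGCGG). Each was searched on both strands, so that a GC box on the other strand reads CCGCCC. The window of Col1a2 lies at chr6:4505368-4505617 (plus strand), that of Col8a1 at chr16:57754738-57754987 (minus strand), that of Col16a1 at chr4:130047590-130047839 (plus strand), that of Col19a1 at chr1:24587438-24587687 (minus strand) and that of Col23a1 at chr11:51289670-51289919 (plus strand).
Col1a2: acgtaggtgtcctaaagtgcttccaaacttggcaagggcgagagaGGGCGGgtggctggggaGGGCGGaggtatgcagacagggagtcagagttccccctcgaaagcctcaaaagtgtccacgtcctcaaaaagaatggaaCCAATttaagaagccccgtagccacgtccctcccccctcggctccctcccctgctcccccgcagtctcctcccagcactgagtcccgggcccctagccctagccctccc
Col8a1: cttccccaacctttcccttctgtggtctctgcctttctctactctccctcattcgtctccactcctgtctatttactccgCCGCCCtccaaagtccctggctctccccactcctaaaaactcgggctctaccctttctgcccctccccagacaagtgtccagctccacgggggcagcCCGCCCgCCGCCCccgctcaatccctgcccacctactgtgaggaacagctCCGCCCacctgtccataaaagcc
Col16a1: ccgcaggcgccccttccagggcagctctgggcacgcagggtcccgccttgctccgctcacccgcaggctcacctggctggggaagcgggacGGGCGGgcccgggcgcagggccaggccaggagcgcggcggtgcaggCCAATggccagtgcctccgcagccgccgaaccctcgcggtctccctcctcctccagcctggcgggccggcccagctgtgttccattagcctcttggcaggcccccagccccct
Col19a1: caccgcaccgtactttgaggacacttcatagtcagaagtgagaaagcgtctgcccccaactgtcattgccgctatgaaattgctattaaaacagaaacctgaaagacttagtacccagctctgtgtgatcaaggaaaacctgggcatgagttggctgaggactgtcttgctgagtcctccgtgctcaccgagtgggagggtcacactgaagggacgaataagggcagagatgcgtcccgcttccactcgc
Col23a1: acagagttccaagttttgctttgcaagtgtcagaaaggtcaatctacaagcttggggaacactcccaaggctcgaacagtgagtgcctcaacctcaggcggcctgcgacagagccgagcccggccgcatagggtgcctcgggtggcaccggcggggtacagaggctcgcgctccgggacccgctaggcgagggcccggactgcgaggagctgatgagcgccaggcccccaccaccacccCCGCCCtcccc

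The window of Col19a1 held none of the 3 motifs, that of Col8a1 held 4 copies of GGGCGG and that of Col1a2 held 2 copies of GGGCGG and 1 CCAAT. RefSeq windows were matched for 34 of the 43 members, 37 windows in all. GGGCGG stood in 21 of the 37 windows (56.8%), against 32.7% of all 32851 windows. CCAAT stood in 13 (35.1%), against 33.8% of all windows, and TATAAA in 5 (13.5%), against 12.4%. A match is a run of letters and was not tied to any factor. Several members are neighbours in the genome: Col4a1 and Col4a2 on chromosome 8 start head to head and share 22 bases (chr8:11312805-11312826, plus strand, printed with no motif marked, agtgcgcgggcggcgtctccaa), the starts of Col4a3 and Col4a4 on chromosome 1 are 72 bases apart, and those of Col4a5 and Col4a6 on the X chromosome are 1309 bases apart.

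Levels are given as normalized reads, which are read counts divided by a library factor. Libraries held 20.6 to 71.6 M reads, and where none were seen, counting error alone allows 3, a floor of 1.38 to 5.33 normalized reads depending on the library. A fold bounded with this floor covers counting error only, not the spread between libraries. The 2 young macrophage libraries stood apart: replicate 9 had reads in 11652 genes and replicate 15 in 13532, against 16750 to 17282 in old macrophages and 14399 to 17200 in young nonmacrophages. Their depths were 25.4 and 35.1 M reads, against 50.6 to 71.6 M in old macrophages. Cx3cr1 had 6383 to 9927 normalized reads in old macrophages, against 26.8 to 102 in old nonmacrophages, and 9201 and 22528 in young macrophages, against 1.63 to 4.28 in young nonmacrophages. Markers of neurons were high in the macrophage libraries of the whole cochlea, with summed levels of 301090 to 439897 in old macrophages, against 15812 to 21852 in old nonmacrophages.

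Collagen genes took 0.0356 to 0.0670% of the reads of old macrophages, against 0.134 to 0.142% in old nonmacrophages. In young macrophages they took 0.00859 and 0.0250%, against 0.106 to 0.196% in young nonmacrophages. The groups did not overlap at either age. The share was 0.0422% in the auditory nerve macrophage library, against 0.303% in the auditory nerve nonmacrophage library, and 0.111% in the lateral wall macrophage library, against 0.280% in the lateral wall nonmacrophage library. Reads were found for 37 to 40 of the 43 members in old macrophages, against 41 in each old nonmacrophage library, and for 12 and 21 members in young macrophages, against 33 to 40 in young nonmacrophages. In sorted bulk samples, fewer cells of a type and less RNA per cell cannot be told apart.

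**Figure D1:**
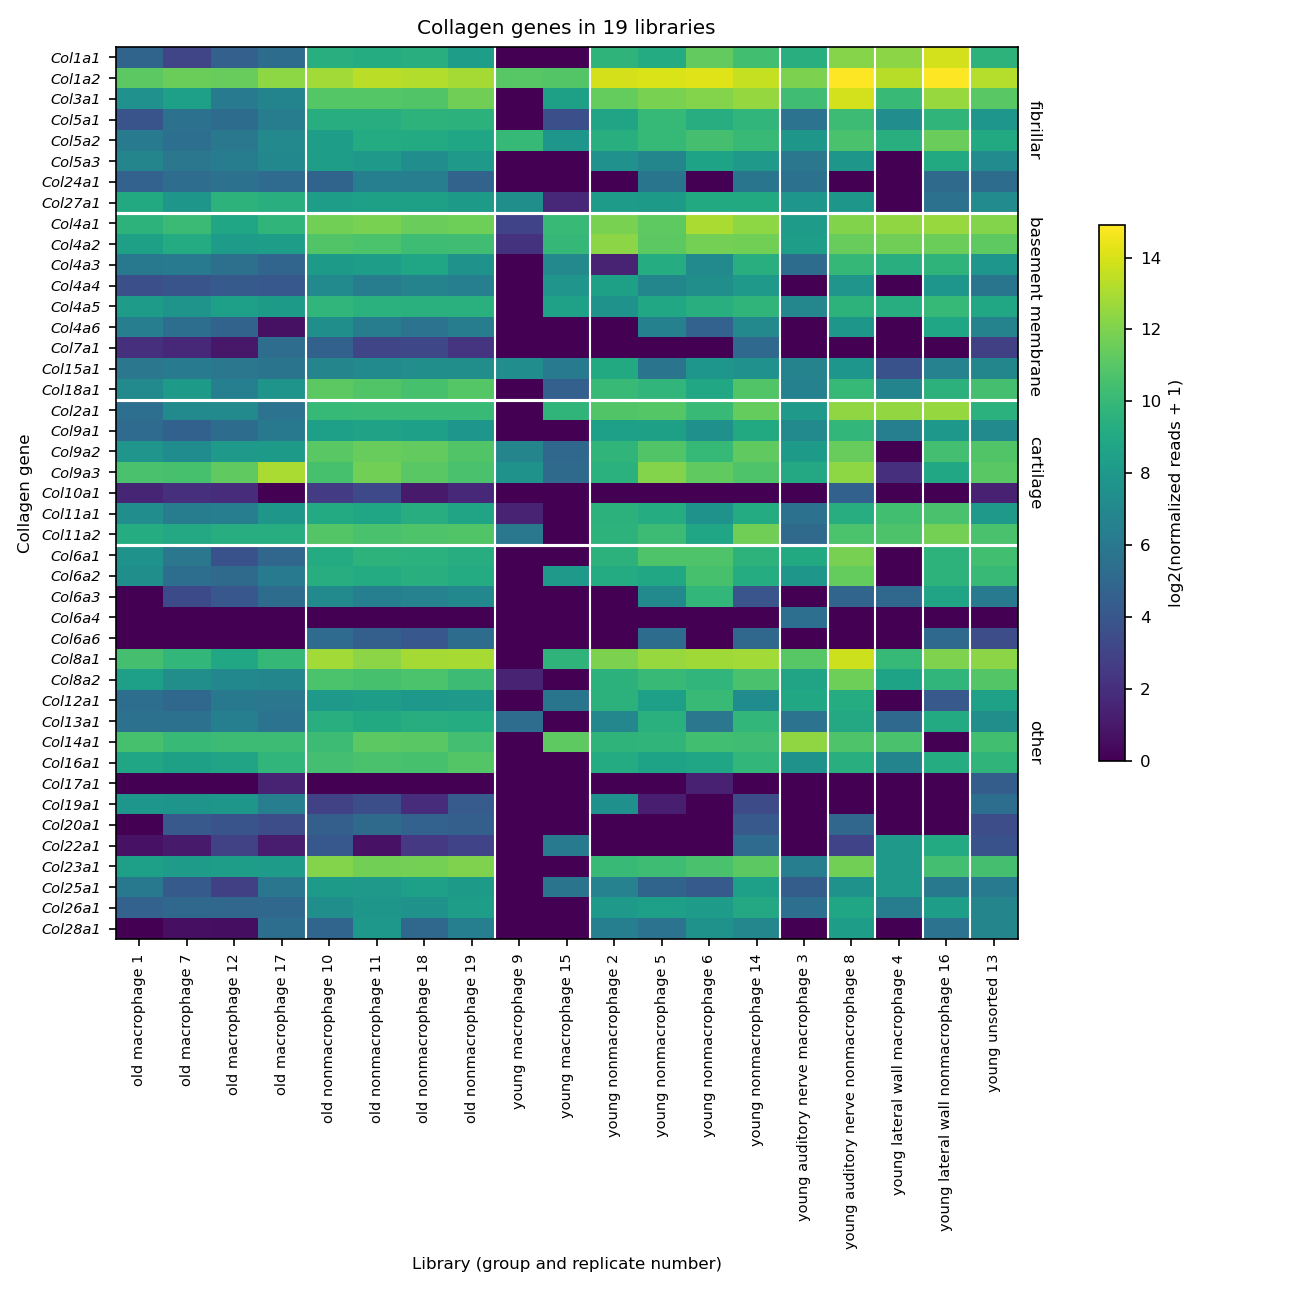
Level of each of the 43 collagen genes (rows, in 4 groups) in each of the 19 libraries (columns, named by group and replicate number), as log2(normalized reads + 1) by colour. Old macrophages have lower levels than old nonmacrophages in most rows, Col19a1 runs the other way, and the 2 young macrophage columns have reads in 12 and 21 of the 43 genes.

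Per kilobase of transcript, the order of members differed between the sorted fractions. In old macrophages the order by median was Col9a3 (655 normalized reads per kilobase, range 493 to 2716), Col1a2 (540.4, range 415 to 966), Col14a1 (185, range 169 to 233) and Col8a1 (183, range 92.4 to 286). In old nonmacrophages it was Col1a2 (1572, range 1336 to 1966), Col8a1 (1466, range 1011 to 1570), Col9a2 (808, range 641 to 932) and Col23a1 (679, range 589 to 804). The ranges of Col9a3 and Col1a2 overlapped in old macrophages, as did those of Col1a2 and Col8a1 in old nonmacrophages. In young nonmacrophages the order was Col1a2 (3054, range 2314 to 3410), Col8a1 (1309, range 777 to 1407) and Col3a1 (744, range 483 to 1074), and the ranges of Col1a2 and Col8a1 did not overlap.

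Most collagen genes were lower in old macrophages than in old nonmacrophages in each of the 4 groups of the family, and Col19a1 was the member called higher. Of 41 members tested with limma, 31 fell and 1 rose, when 58.3% of all genes tested changed (33.4% lower and 24.9% higher), and 9 did not pass the test. The median log2 difference of the members was -2.58, against -0.19 over all genes. By group, 6 of 8 fibrillar, 7 of 9 basement membrane, 5 of 7 cartilage and 13 of 17 other genes tested fell. The old groups did not overlap for 32 members, 31 of them lower in macrophages, when 53.8% of all genes tested had groups that did not overlap (30.3% lower and 23.5% higher). With the spread estimated over all 14 sorted whole cochlea libraries, 18 members were called, 17 lower and 1 higher, when 18.6% of all genes were.

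Among fibrillar genes, the type I, III and V chains fell. Col1a1, the main chain of type I collagen, had 26.9, 7.62, 22.6 and 37.8 normalized reads in old macrophages, against 666, 589.8, 633 and 311 in old nonmacrophages. Every macrophage library lay below every nonmacrophage library, with a log2 difference of -4.61 (SE 0.46, adjusted p = 1.67e-05). Col1a2, the other type I chain, had 2219, 2982, 2798 and 5167 in old macrophages, against 7146, 10517, 9092 and 7719 in old nonmacrophages. It was the most abundant fibrillar gene in both fractions and its groups did not overlap, yet its log2 difference was -1.45 (SE 0.23, adjusted p = 0.000424). Col3a1, the type III chain of reticular fibres and vessel walls, had 187, 337, 71.4 and 102 in old macrophages, against 1976, 1983, 1859 and 3259 in old nonmacrophages, a log2 difference of -3.90 (SE 0.42, adjusted p = 2.79e-05). Col5a1 and Col5a2 code for chains that help set the width of type I fibrils. Col5a1 had 13.5, 48.4, 36.9 and 77.4 in old macrophages, against 614, 621, 785 and 765 in old nonmacrophages (log2 difference -4.18, SE 0.44, adjusted p = 2.43e-05). Col5a2 had 65.4, 41.9, 60.4 and 129.9 in old macrophages, against 325, 567, 540.0 and 425 in old nonmacrophages (log2 difference -2.72, SE 0.34, adjusted p = 8.06e-05). The groups of Col3a1, Col5a1 and Col5a2 did not overlap. Col5a3 also fell, while Col24a1 had means ± SD of 36.8 ± 8.82 in old macrophages against 54.5 ± 33.2 in old nonmacrophages (n = 4 each), and Col27a1 had 554 ± 233 in old macrophages against 325 ± 33.8 in old nonmacrophages. Neither passed the test.

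Basement membrane genes had log2 differences of -3.53 to -0.81, and 7 of the 9 fell. Col4a1, which with Col4a2 makes the type IV network found in most basement membranes, had 776, 1136, 449 and 855 in old macrophages, against 3424, 3879, 2836 and 3124 in old nonmacrophages. Its groups did not overlap and its log2 difference was -2.11 (SE 0.24, adjusted p = 4.35e-05). Col4a2 had 356, 575, 305 and 329 in old macrophages, against 1829.8, 1637, 1232 and 1275 in old nonmacrophages, with no overlap (log2 difference -1.96, SE 0.22, adjusted p = 3.18e-05). Col15a1 and Col18a1 code for cores of basement membrane proteoglycans, and the endostatin fragment comes from Col18a1. Col15a1 had 58.4, 65.3, 59.4 and 51.2 in old macrophages, against 111, 139.7, 166 and 161 in old nonmacrophages (log2 difference -1.28, SE 0.24, adjusted p = 0.00128). Col18a1 had 132, 278, 85.7 and 212 in old macrophages, against 2221, 1822, 1491 and 2008 in old nonmacrophages (log2 difference -3.53, SE 0.32, adjusted p = 9.08e-06). Both sets of groups were apart, and the difference of Col18a1 was the largest of the group. Col4a3, Col4a4 and Col4a5 fell as well, while Col4a6 (37.6 ± 34.6 in old macrophages, against 93.0 ± 51.3 in old nonmacrophages) and Col7a1, the anchoring fibril gene (11.2 ± 18.2 in old macrophages, against 10.9 ± 8.92 in old nonmacrophages), did not pass the test.

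Cartilage genes fell except for Col9a3 and Col10a1. Col2a1, the main chain of cartilage fibrils, had 41.7, 134, 138 and 50.6 in old macrophages, against 1019, 1078, 1049 and 1102 in old nonmacrophages, with no overlap (log2 difference -3.73, SE 0.38, adjusted p = 1.79e-05). Col11a1 had 158, 77.3, 80.2 and 231 in old macrophages, against 539, 454, 630.1 and 419.7 in old nonmacrophages (log2 difference -2.03, SE 0.35, adjusted p = 0.000634). Col11a2 had 593, 503, 625 and 627 in old macrophages, against 1945, 1554, 1783 and 1833 in old nonmacrophages (log2 difference -1.60, SE 0.12, adjusted p = 2.05e-06). Both code for type XI chains, which join type II in the fibril core, and neither had groups that overlapped. The chains of type IX collagen, which sits on the surface of type II fibrils, differed from each other. Col9a1 had 35.9, 23.4, 37.8 and 63.4 in old macrophages, against 341, 375, 338 and 226 in old nonmacrophages (log2 difference -3.03, SE 0.33, adjusted p = 2.71e-05). Col9a2 had 213, 152, 262 and 273 in old macrophages, against 2203, 2725, 2521 and 1874 in old nonmacrophages (log2 difference -3.39, SE 0.20, adjusted p = 5.28e-07). Col9a3 had 1546, 1502, 2442 and 8272 in old macrophages, against 1497, 3354, 2147 and 1562 in old nonmacrophages. Its groups overlapped, replicate 17 of the old macrophages was the highest of all 8, and the log2 difference of 0.37 (SE 0.50) did not pass the test (adjusted p = 0.547). Of the exon bases of Col9a3, 6.07% are shared with the neighbouring gene Tcfl5, and the library preparation is not stated to keep strand, so reads there are uncertain. Col10a1, the gene of hypertrophic cartilage, had 1.92, 3.26, 2.76 and 0 in old macrophages, against 4.92, 8.95, 1.11 and 2.19 in old nonmacrophages, which is near the floor of 3 reads in most libraries.

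Among the other types, Col19a1 rose and 13 genes fell. Col19a1, a fibril-associated collagen that some neurons of the mouse brain make, had 223, 212, 233 and 81.7 in old macrophages, against 6.77, 11.0, 2.78 and 18.7 in old nonmacrophages. Every macrophage library was above every nonmacrophage library, and the log2 difference was 4.26 (SE 0.56, adjusted p = 0.000107). In the same libraries 9 of 10 neuron markers rose, none of the 10 was at 0 in any of them, and the part of neuronal RNA in the level of Col19a1 was not tested. In the lateral wall macrophage library, where 4 neuron markers were at 0 and their sum was 498, Col19a1 was at 0. It was also at 0 in the auditory nerve macrophage library, where the neuron sum was 34097. Both young whole cochlea macrophage libraries had no Col19a1 reads, with neuron sums of 285964 and 147054. Young nonmacrophage replicate 2 had 179.6 normalized reads with a neuron sum of 23784, and the unsorted library had 41.3 with a sum of 226704. Col23a1, a membrane-spanning collagen, had 332, 286, 315 and 287 in old macrophages, against 4549.5, 3330.3, 3585 and 4099 in old nonmacrophages. Its groups did not overlap and its log2 difference of -3.66 had an SE of 0.12 (adjusted p = 3.03e-08).

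Of the type VI genes, whose chains form beaded microfibrils around cells, Col6a1, Col6a2, Col6a3 and Col6a6 fell in old macrophages, while Col6a4 had no reads in any of the 8 old libraries and was not tested. Col6a1 had 202, 58.2, 12.4 and 29.3 in old macrophages, against 569.5, 785, 717 and 612 in old nonmacrophages (log2 difference -3.83, SE 0.67, adjusted p = 0.00073). Col6a3 had 0, 9.25, 15.7 and 37.2 in old macrophages, against 141, 86.0, 96.8 and 123 in old nonmacrophages (log2 difference -3.62, SE 0.93, adjusted p = 0.00727). Col6a6 had no reads in any old macrophage library, against 35.7, 21.3, 15.6 and 37.3 in old nonmacrophages, so it was at least 16.2-fold lower with the floor of 3 reads per library (adjusted p = 1.16e-05). The groups of these 3 genes did not overlap. Col28a1 had 0, 0.544, 0.461 and 41.5 in old macrophages, against 28.3, 241, 30.0 and 84.5 in old nonmacrophages; it was called lower (log2 difference -4.40, SE 1.18, adjusted p = 0.0091) although replicate 17 of the old macrophages lay within the nonmacrophage range. Col8a1 and Col8a2, the short chains of a hexagonal network known under vascular and corneal endothelium, averaged 952 ± 406 and 186 ± 104 in old macrophages, against 7038 ± 1286 and 1483 ± 209 in old nonmacrophages, and both fell (adjusted p = 1.52e-05 and 1.54e-05). Col14a1, a fibril-associated collagen, had 1506, 1094, 1202 and 1185 in old macrophages, against 1198, 2248, 2179 and 1409 in old nonmacrophages. Its groups overlapped and its log2 difference of -0.45 (SE 0.21) did not pass the test (adjusted p = 0.0855).

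**Figure D2:**
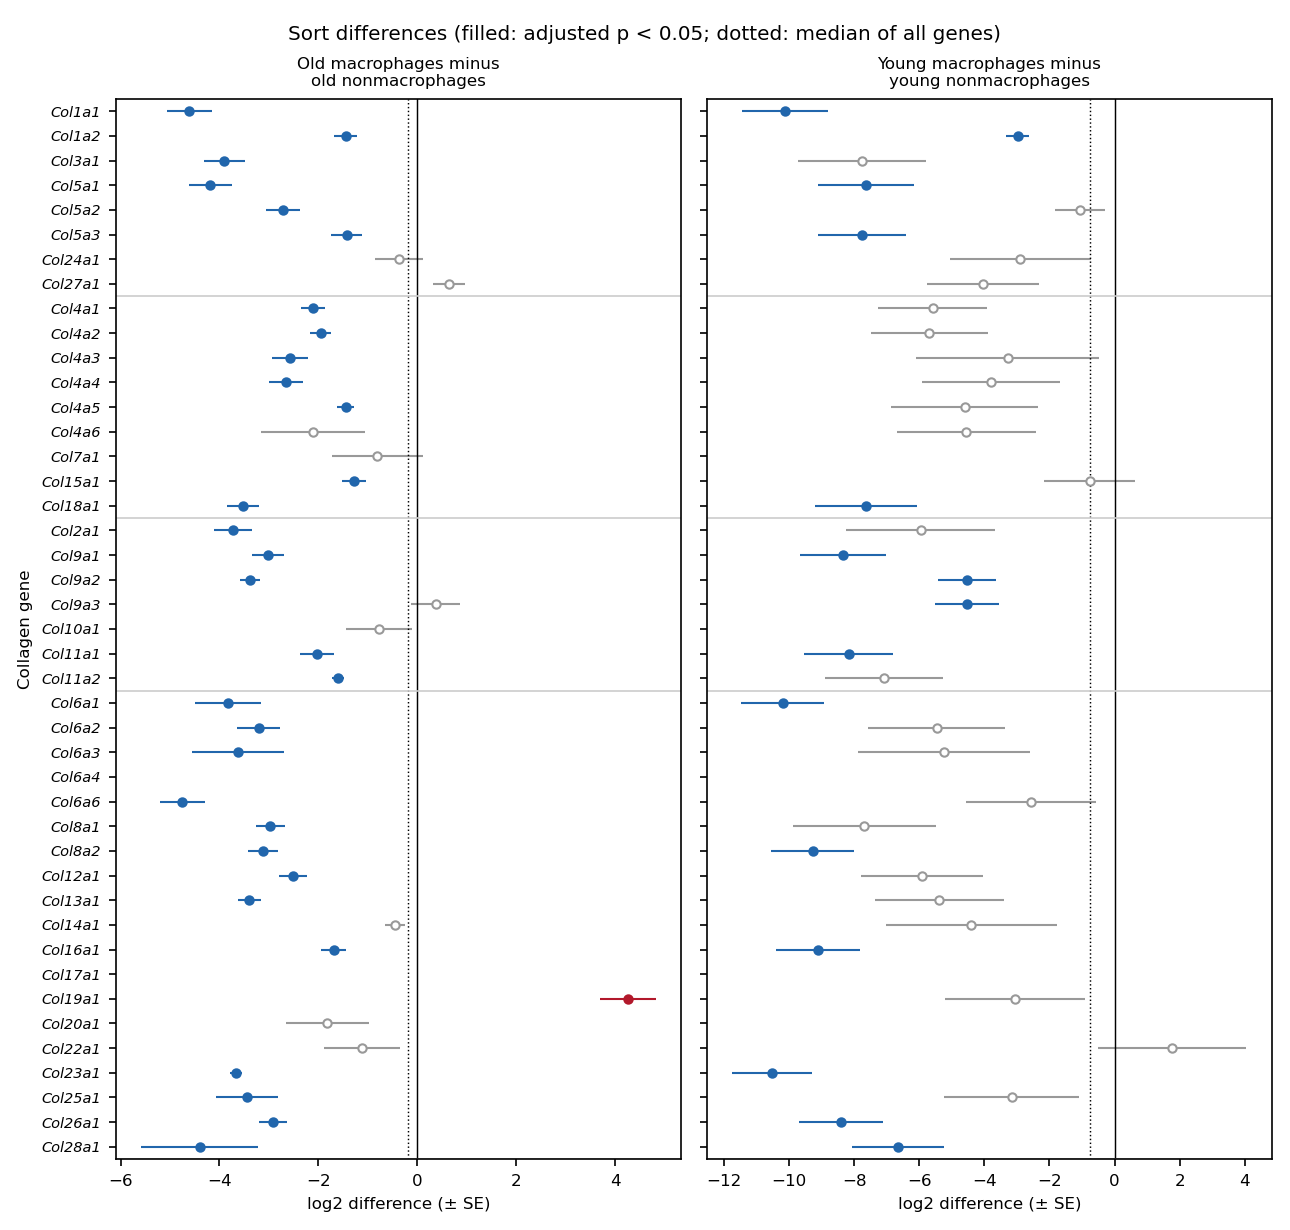
Log2 difference of each collagen gene tested (rows; points, with bars of 1 SE) between macrophages and nonmacrophages of the old cochlea (left) and the young cochlea (right), on log2(normalized reads + 1). Filled points passed the test (adjusted p under 0.05, limma), and the dotted line marks the median of all genes, -0.19 in the old and -0.75 in the young cochlea. Most points lie left of 0, with Col19a1 far to the right in the old cochlea.

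Most markers of the cells known to make collagens were also lower in old macrophages than in old nonmacrophages. Of all genes tested, 33.4% were lower and 24.9% higher. In old macrophages 8 of 10 fibroblast markers fell and 2 rose (summed levels of 6839 to 10895, against 71163 to 91090 in old nonmacrophages, and 1 marker at 0 in replicate 17). For osteoblasts and osteocytes 8 of 10 fell (1348 to 3671 in old macrophages, against 9163 to 13087 in old nonmacrophages, with 0 to 6 markers at 0 per macrophage library), and for chondrocytes 6 of 8 fell and 1 rose (8261 to 12416 in old macrophages, against 30261 to 48458 in old nonmacrophages, with 1 or 2 markers at 0). All 10 endothelial markers (6653 to 8115 in old macrophages, against 39813 to 57536 in old nonmacrophages, none at 0) and all 10 pericyte and smooth muscle markers (3617 to 6218 in old macrophages, against 16734 to 38080 in old nonmacrophages, none at 0) fell, as did 9 of 10 markers each of Schwann cells and of supporting cells. Their part in the collagen differences was not tested.

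In the young cochlea, macrophages again had less collagen RNA than nonmacrophages. Of 38 members tested with limma, 15 fell and 0 rose, when 8.68% of all genes tested changed (6.6% lower and 2.07% higher). At an unadjusted p under 0.05, 25 members were lower and 0 higher, and edgeR called 9 lower and 0 higher. The median log2 difference of the members was -5.53, against -0.75 over all genes. By group, 4 of 8 fibrillar, 1 of 8 basement membrane, 4 of 6 cartilage and 6 of 16 other genes tested fell. The groups did not overlap for 25 members, all lower, when 32.7% of all genes had groups that did not overlap (20.9% lower and 11.8% higher). Of the 15 that fell, 14 were also among the 31 that fell in the old cochlea. The count depended on single libraries: it was 9 without young nonmacrophage replicate 5 (3.09% of all genes called) and 8 without young nonmacrophage replicate 14 (3.79%). With library quality weights it was 6 (1.81%). Without 1 young macrophage library the other was assumed to vary like the nonmacrophages, so no count is given. In the same libraries 7 of 10 fibroblast markers fell (summed levels of 11836 and 5083 in young macrophages, with 4 and 3 markers at 0, against 76639 to 158622 in young nonmacrophages). Of the other marker lists, 9 of 10 Schwann cell and glia, 4 of 9 osteoblast and osteocyte, 3 of 7 chondrocyte, 4 of 10 supporting cell and 1 of 10 endothelial markers tested fell. Of the 10 pericyte and smooth muscle markers, limma called 0 (3 lower and 0 higher at an unadjusted p under 0.05; edgeR called 0), and 4 of 10 neuron markers rose. Their part in the collagen differences was not tested.

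The members that fell most had no reads in either young macrophage library. Their fold bounds cover counting error only. The spread between these libraries was wider for other members, with 0 and 2397 normalized reads of Col14a1 and 0 and 844 of Col2a1. Col23a1 had 0 and 0 in young macrophages, against 1085, 1211, 1586 and 2255 in young nonmacrophages, at least 354.6-fold lower with the floor of 3 reads per library (adjusted p = 0.00843). Col1a1 had 0 and 0 in young macrophages, against 813, 569, 2542 and 1312 in young nonmacrophages, at least 302.5-fold lower (adjusted p = 0.00851). Col6a1 had 0 and 0 in young macrophages, against 756, 1795, 1767 and 799.5 in young nonmacrophages, at least 295.7-fold lower (adjusted p = 0.00843). All 3 had every nonmacrophage library above both macrophage libraries. Col16a1, a fibril-associated collagen, was at least 134.8-fold lower in the same way, and Col9a1, with 0 and 0 in young macrophages against 345, 351, 178 and 524 in young nonmacrophages, at least 80.7-fold lower. Col8a2 had 1.76 and 0 in young macrophages, against 761, 1035, 884 and 1589 in young nonmacrophages (log2 difference -9.27, SE 1.27, adjusted p = 0.00875). Col1a2 kept reads in both, with 2078 and 1896 in young macrophages, against 15875, 16789, 18236 and 12377 in young nonmacrophages. Its groups did not overlap and its log2 difference was -2.98 (SE 0.36, adjusted p = 0.00843).

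For many other members the 2 young macrophage libraries differed from each other as much as the fractions did. Col3a1 had 0 and 348 in young macrophages, against 2690.0, 3834, 4443 and 5974 in young nonmacrophages (log2 difference -7.77, SE 1.97, adjusted p = 0.0513). Col4a1 had 7.02 and 1074 in young macrophages, against 3879, 2379, 8130.3 and 5286 in young nonmacrophages. Col4a2 had 3.51 and 987 in young macrophages, against 5046, 2300.3, 3495 and 3438 in young nonmacrophages. Replicate 15 held nearly all of the type IV reads of the 2 libraries. Its pericyte and smooth muscle marker sum was 42420, against 14769 in replicate 9, and its endothelial marker sum was 32535, against 29933. The part of such cells was not tested. Col2a1 had 0 and 844 in young macrophages, against 1846, 1991, 1077 and 2667 in young nonmacrophages, and Col14a1 had 0 and 2397 in young macrophages, against 807, 843, 1318 and 1272 in young nonmacrophages. The order of the replicates was turned round for Col5a2 (997 and 227 in young macrophages, against 638, 1006, 1455 and 1060.0 in young nonmacrophages) and Col15a1 (159.7 and 73.4 in young macrophages, against 533, 51.8, 227 and 186 in young nonmacrophages). None of these 7 genes passed the test. Among the remaining cartilage genes, Col11a1 had 1.76 and 0 in young macrophages, against 772, 599, 197 and 568 in young nonmacrophages, and fell (log2 difference -8.17, SE 1.36, adjusted p = 0.0132). Col9a3 had 195 and 35.0 in young macrophages, against 725, 4426, 2472 and 1759 in young nonmacrophages, and fell too (log2 difference -4.53, SE 0.99, adjusted p = 0.0311). Col11a2 had 61.4 and 0 in young macrophages, against 800.1, 1181, 434 and 3253 in young nonmacrophages (adjusted p = 0.0531), and Col10a1 had no reads in any of the 6 libraries. Col18a1 had 0 and 22.6 in young macrophages, against 1063, 887, 491 and 1878 in young nonmacrophages, and fell (log2 difference -7.64, SE 1.58, adjusted p = 0.0264), while Col6a3 had 0 and 0 in young macrophages, against 0, 139, 946 and 14.4 in young nonmacrophages, with groups that overlapped.

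**Figure D3:**
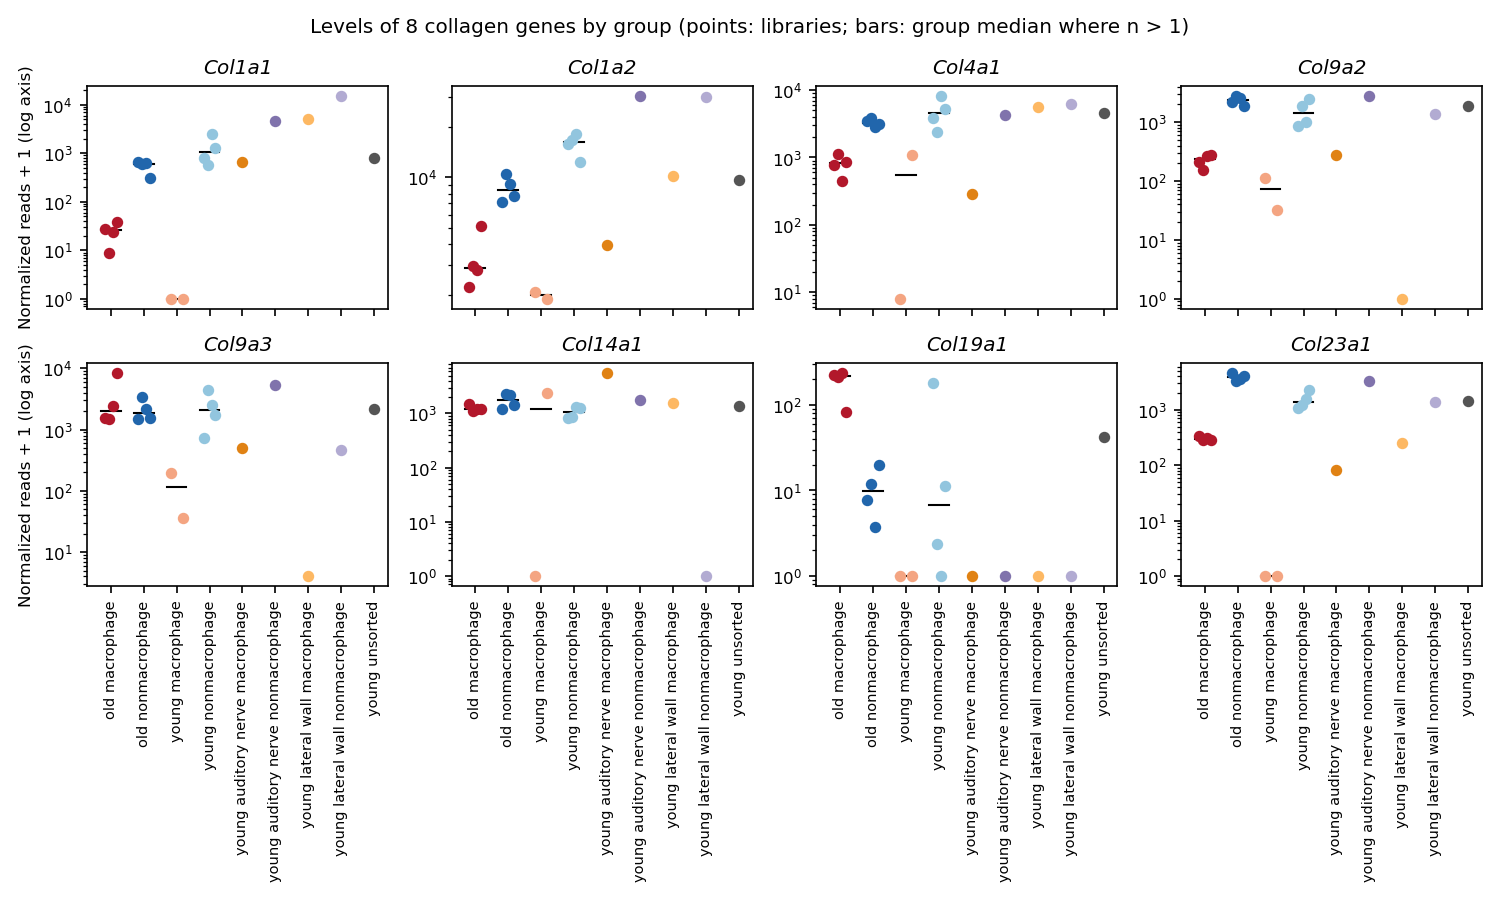
Normalized reads + 1 (log axis) of 8 collagen genes in each library (points) by group (horizontal axis), with bars at the group median where a group has over 1 library. Col1a1 lies near 10 to 40 in old macrophages and at the bottom of the axis in young macrophages, and Col19a1 is the gene whose old macrophage points lie above the old nonmacrophage points.

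Between ages, macrophages differed in 14 members, all higher in old than in young macrophages. Of 39 members tested with limma, 14 rose and 0 fell, when 24.9% of all genes tested changed (18.7% higher and 6.2% lower). At an unadjusted p under 0.05, 17 members were higher and 1 lower, and edgeR called 11 higher and 1 lower. The median log2 difference of the members was 3.44, against 1.07 over all genes. Every old library was above both young ones for 21 members and below both for 2, when the groups of 48.3% of all genes did not overlap (33.9% higher and 14.3% lower). Those that rose were Col1a1, Col5a3 and Col24a1 among fibrillar genes, Col18a1 among basement membrane genes, Col9a1, Col9a3, Col11a1 and Col11a2 among cartilage genes, and Col6a1, Col8a2, Col16a1, Col19a1, Col23a1 and Col26a1 among other types. With the values given above, 9 of the 14 had no reads in either young macrophage library, and 18 of all 43 members had none there. For those 9 the young group adds no spread to the test. Depth, the number of genes with reads and age cannot be told apart in these libraries, since both young macrophage libraries were shallower than every old one.

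Col16a1 had 456, 349, 412 and 887 in old macrophages, against 0 and 0 in young macrophages, at least 121.5-fold higher with the floor of 3 reads per library (adjusted p = 0.000945). Col23a1, with 286 to 332 in old macrophages, was at least 70.4-fold higher (adjusted p = 0.000945), and Col19a1 was at least 43.3-fold higher (adjusted p = 0.00114). These bounds cover counting error only, not the spread between the young libraries. Col8a2 had 339, 167, 123 and 115 in old macrophages, against 1.76 and 0 in young macrophages (log2 difference 6.67, SE 0.77, adjusted p = 0.00233). No old library overlapped a young one for these genes. For the same 14 members, 13 had reads in the auditory nerve or lateral wall macrophage library of young mice, which held 26.4 and 23.7 M reads, and 4 were above both of those libraries in every old macrophage library. The same counts were not taken over all genes, so they do not set the family apart. Col16a1 had 197 normalized reads in auditory nerve macrophages and 103 in lateral wall macrophages. In the same libraries Col23a1 had 81.0 and 251, Col8a2 had 408 and 397 and Col19a1 had 0 and 0. Members that did not pass the test included Col1a2 (3292 ± 1292 in old and 1987 ± 129 in young macrophages; SD, n = 4 and 2; adjusted p = 0.223), Col4a1 (804 ± 283 in old and 540.3 ± 754 in young macrophages) and Col5a2 (74.4 ± 38.3 in old and 612 ± 545 in young macrophages).

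The age difference in macrophages depended on scaling and on the young libraries. With quantile normalization, which moved the median of all genes to -0.08, 7 members were called, 4 higher and 3 lower, when 17.3% of all genes were. With library quality weights limma called 0 members and 0% of all genes. Without young macrophage replicate 9, 17 members were higher and 5 lower, when 49.4% of all genes were called. Without replicate 15, 28 were higher and 2 lower, when 67.8% of all genes were called. With 1 young library left, that library was assumed to vary like the old ones. In the main fit of the same contrast, 18.7% of all genes tested were higher and 6.2% lower. Of the chondrocyte markers tested, 4 of 7 rose. Their summed levels were 8261 to 12416 in old macrophages, against 3154 and 2838 in young macrophages. Of 8, 1 or 2 were at 0 in old and 4 and 3 in young libraries. Of fibroblast, Schwann cell and supporting cell markers 3 of 10 each rose. Of osteoblast and osteocyte markers 1 of 8 rose. These shares are not far from that of all genes. In the other direction 4 of 10 endothelial markers (6653 to 8115 in old macrophages, against 29933 and 32535 in young macrophages), 3 of 10 pericyte and smooth muscle markers (3617 to 6218 in old macrophages, against 14769 and 42420 in young macrophages) and 6 of 10 macrophage markers fell. Their part in the collagen differences was not tested.

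With age, Col23a1 was the member called in nonmacrophages. Of 41 members tested with limma, 1 rose and 0 fell, when 0.971% of all genes tested changed (0.943% higher and 0.0277% lower). At an unadjusted p under 0.05, 7 were higher and 7 lower, and edgeR called 0 in either direction. Col23a1 averaged 3891 ± 543 in old and 1534 ± 526 in young nonmacrophages (SD, n = 4 each; log2 difference 1.39, SE 0.26, adjusted p = 0.0462), and the 4 old libraries were above the 4 young ones. Its adjusted p was 0.0445 to 0.164 over the alternatives apart from leaving out young nonmacrophage replicate 14, when it was 0.00303. That replicate held 60.2 M reads, against 24.9 to 25.4 M in the other young nonmacrophage libraries. Without it 11 members were higher and 2 lower, when 27.9% of all genes were called. With libraries of over 50 M reads only, which left replicate 14 as the only young library, assumed to vary like the old ones, Col23a1 had a log2 difference of 0.78 (adjusted p = 0.107), Col6a3 was higher (2.84, adjusted p = 0.0418) and Col2a1 lower (-1.33, adjusted p = 0.0246).

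A further 6 members had groups of old and young nonmacrophages that did not overlap but did not pass the test. Among all genes tested, 17.8% had groups that did not overlap: 12.3% had every old library above every young one and 5.51% every old one below. Col1a2 averaged 8618 ± 1506 in old and 15820 ± 2492 in young nonmacrophages (log2 difference -0.88, SE 0.21, adjusted p = 0.0882). Col5a2 averaged 464 ± 111 in old and 1040 ± 334 in young nonmacrophages (adjusted p = 0.127), and Col4a2 averaged 1493 ± 289 in old and 3570 ± 1127 in young nonmacrophages (adjusted p = 0.0761). These 3 were lower in every old library than in every young one. Col16a1 averaged 1601 ± 219 in old and 583 ± 242 in young nonmacrophages (log2 difference 1.53, SE 0.31, adjusted p = 0.0574). Col20a1 averaged 25.6 ± 6.01 in old and 4.28 ± 8.56 in young nonmacrophages, and Col10a1 had 1.11 to 8.95 in old and no reads in young nonmacrophages. Old and young libraries overlapped in Col8a1 (7038 ± 1286 in old and 6133 ± 1501 in young) and Col9a3 (2140 ± 861 in old and 2346 ± 1561 in young).

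**Figure D4:**
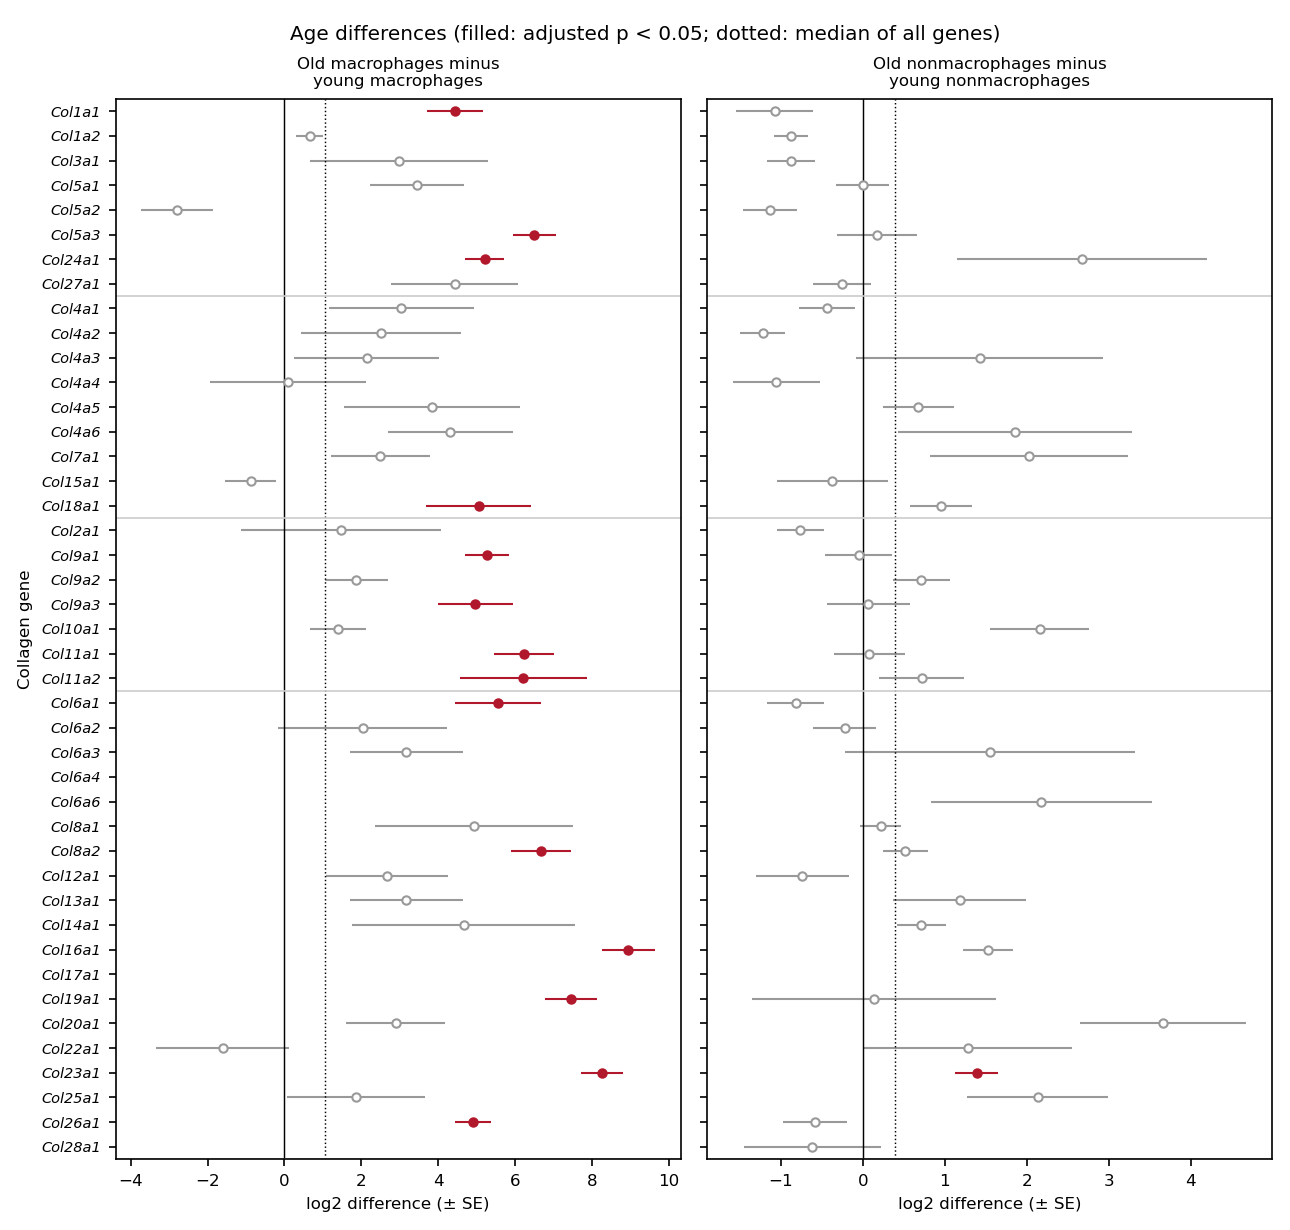
Log2 difference of each collagen gene tested (rows; points, with bars of 1 SE) between old and young macrophages (left) and between old and young nonmacrophages (right), on log2(normalized reads + 1). Filled points passed the test (adjusted p under 0.05, limma), and the dotted line marks the median of all genes, 1.07 and 0.40. In macrophages 14 points are filled and right of 0, and in nonmacrophages only that of Col23a1 is filled.

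The difference between the 2 sort differences was tested as an interaction, the old sort difference minus the young one, over the 14 sorted whole cochlea libraries with limma. Of 42 members tested, 13 were higher and 0 lower, when 7.94% of all genes tested changed (6.98% higher and 0.954% lower). At an unadjusted p under 0.05, 16 were higher and 0 lower, and edgeR called 12 higher and 0 lower. The 13 were Col1a1, Col1a2, Col5a3, Col9a1, Col9a3, Col11a1, Col11a2, Col6a1, Col8a2, Col16a1, Col19a1, Col23a1 and Col26a1, and no basement membrane gene was among them. The largest were Col16a1 (7.41, SE 0.70, adjusted p = 2.35e-05), Col19a1 (7.31, SE 2.03, adjusted p = 0.043), Col23a1 (6.86, SE 0.55, adjusted p = 6.59e-06) and Col6a1 (6.38, SE 1.16, adjusted p = 0.00313). Apart from Col9a3 and Col19a1, the log2 sort difference of these members was below 0 at both ages and nearer to 0 in the old cochlea, while for these 2 it was below 0 in the young and above 0 in the old cochlea. In young nonmacrophages, replicate 2 had 179.6 normalized reads of Col19a1 and the others 0 to 10.2. Young macrophages had none, so the young groups overlapped. The count was 3 with quantile normalization (3.46% of all genes called) and 2 with library quality weights (0.803%). The members with no reads in young macrophages carry fitted values that depend on the pseudocount.

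The substructures of young mice were compared with 1 library per group, so with no replicate check, and macrophage libraries again held less of most collagens. Of 38 members with at least 20 normalized reads in the auditory nerve macrophage or nonmacrophage library, 33 were over 2-fold lower and 3 over 2-fold higher in the macrophage library, when 33.1% and 22.2% of all genes were (55.3% in either direction). Of 36 in the lateral wall, 28 were over 2-fold lower and 2 over 2-fold higher, when 27.2% and 18.5% of all genes were (45.6% in either direction). Ratios below are given with 95% intervals that cover counting error only. Col3a1 had 1294 normalized reads in the auditory nerve macrophage library, against 15285 in the nonmacrophage library, and 1075 in the lateral wall macrophage library, against 6249 in the nonmacrophage library. Col8a1 had 2118 in auditory nerve macrophages, against 13983 in nonmacrophages, and 1008 in lateral wall macrophages, against 4126 in nonmacrophages. Col14a1 ran the other way in the auditory nerve, with 5478 in the macrophage library, against 1775 in the nonmacrophage library (3.09-fold, interval 2.89 to 3.30). In the lateral wall it had 1545 in the macrophage library and no reads in the nonmacrophage library.

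The lateral wall macrophage library differed from the other macrophage libraries in its bone and cartilage collagens. Col1a1 had 5109 normalized reads there, against 15051 in lateral wall nonmacrophages, while the auditory nerve macrophage library had 664, against 4673 in auditory nerve nonmacrophages. Col2a1 had 5665 in lateral wall macrophages, against 5929 in nonmacrophages (0.956-fold, interval 0.913 to 1.00). Col11a1 had 1355 in lateral wall macrophages, against 1594 in nonmacrophages (0.851-fold, interval 0.777 to 0.931), and Col4a1 had 5539.7 in lateral wall macrophages, against 6151 in nonmacrophages. Col2a1, Col11a1 and Col4a1 were thus less than 2-fold apart, while Col1a1, Col1a2 (0.339-fold), Col11a2 (0.488-fold) and Col9a1 (0.357-fold) were over 2-fold lower in the lateral wall macrophage library. Its osteoblast and osteocyte marker sum was 52774, with 1 of 10 markers at 0, against 105844 in lateral wall nonmacrophages and 7459 in auditory nerve macrophages, and its pericyte and smooth muscle marker sum was 50688, against 69157 in lateral wall nonmacrophages. The part of such cells was not tested. Other members were low there: Col9a3 had 3.06 normalized reads, and Col9a2, Col6a1, Col6a2, Col12a1, Col27a1 and Col5a3 had none, although all 6 had reads in the auditory nerve macrophage library.

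Between the nonmacrophage libraries of the 2 substructures, 16 of 39 members were over 2-fold higher and 8 over 2-fold lower in the auditory nerve, when 18.5% and 15.0% of all genes were (33.5% in either direction). Of 34 members in the macrophage libraries, 12 were over 2-fold higher and 15 over 2-fold lower in the auditory nerve, when 21.2% and 19.2% of all genes were (40.4% in either direction). In nonmacrophages, Col9a3 had 5285 in the auditory nerve, against 469 in the lateral wall (11.3-fold, interval 10.0 to 12.7), and Col23a1 had 3364 in the auditory nerve, against 1369 in the lateral wall (2.46-fold, interval 2.27 to 2.66). Col1a2 had 30448 in the auditory nerve, against 30136 in the lateral wall (1.01-fold, interval 0.991 to 1.03). Col22a1, a collagen of tissue junctions, had 6.99 in auditory nerve and 558 in lateral wall nonmacrophages, and 268 in the lateral wall macrophage library, when whole cochlea libraries held 0 to 68.9. Col6a4 had reads in the auditory nerve macrophage library only (43.0 normalized reads). Col17a1, a collagen of epithelial hemidesmosomes, had 19.9 in the unsorted library, and 1.83 and 1.63 in the 2 other libraries where it had reads. In the unsorted library Col1a2 had 9615 and Col1a1 801.

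Ratios between partner chains, taken per kilobase of transcript, differed between fractions and substructures. Type I protein is known to hold more of the Col1a1 chain than of the Col1a2 chain, yet the ratio of Col1a1 to Col1a2 RNA was below 1 in every library with more than 3 reads of both. It was 0.00230 to 0.0110 in old macrophages, against 0.0363 to 0.0841 in old nonmacrophages, and 0.0306 to 0.126 in young nonmacrophages. Both young macrophage libraries had no Col1a1 reads, with 2078 and 1896 normalized reads of Col1a2, so no ratio was taken there. The ratio was 0.152 in auditory nerve macrophages, against 0.138 in auditory nerve nonmacrophages, and 0.451 in lateral wall macrophages, against 0.450 in lateral wall nonmacrophages. The ratio was close in the 2 fractions of each substructure and did not overlap between the fractions of the old cochlea. The ratio of Col9a3 to Col9a2 was 6.97 to 29.1 in old macrophages, against 0.652 to 1.18 in old nonmacrophages, and 1.69 and 1.06 in young macrophages, against 0.692 to 2.33 in young nonmacrophages. For this pair, old macrophages lay above every other library with more than 3 reads of both genes. The ratio of Col4a1 to Col4a2 was 1.43 to 2.53 in old macrophages, against 1.82 to 2.39 in old nonmacrophages, and 0.750 to 2.27 in young nonmacrophages, so these groups overlapped. The ratio of Col5a1 to Col5a2 was 0.863 to 1.49 in old nonmacrophages, against 0.341 to 0.786 in young nonmacrophages, with no overlap. Ratios are descriptions and were not tested.

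**Figure D5:**
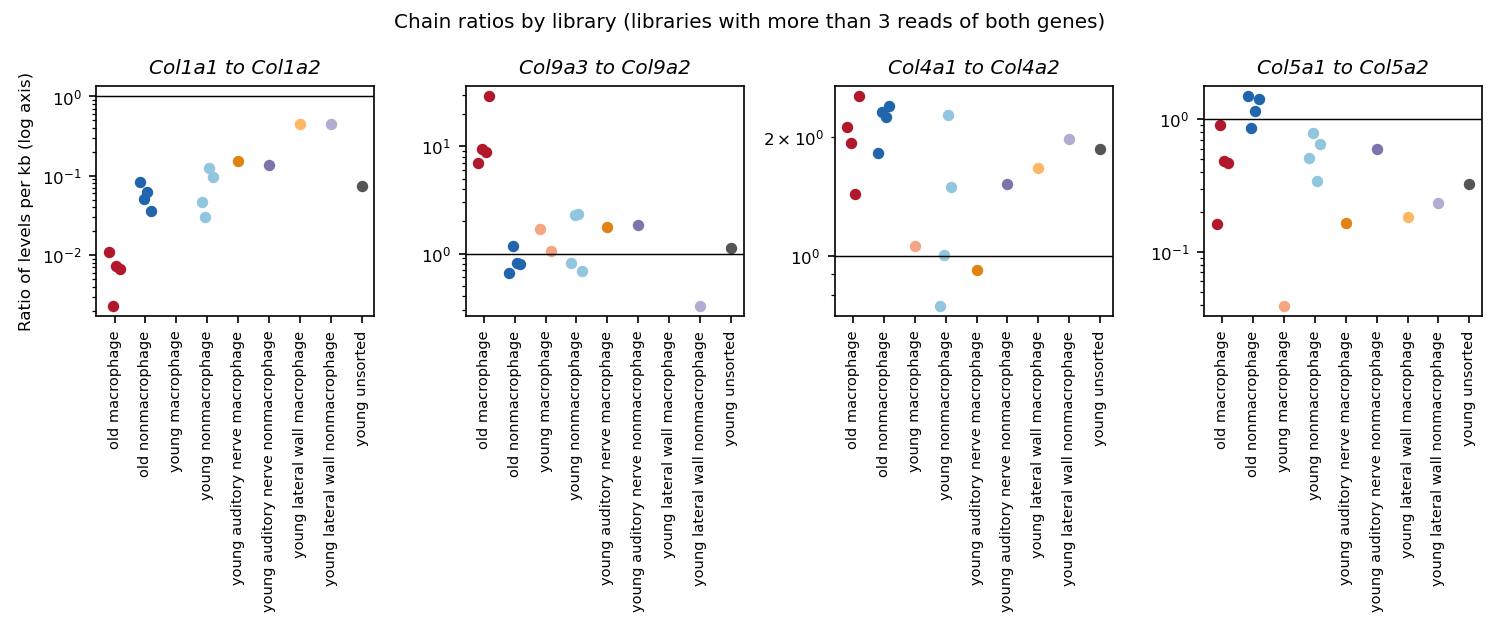
Ratio of 2 partner chains per kilobase of transcript (log axis) in each library with more than 3 reads of both genes (points) by group, for 4 pairs, with a line at 1. Among the libraries shown, the ratio of Col1a1 to Col1a2 is lowest in old macrophages and highest in the 2 lateral wall libraries. That of Col9a3 to Col9a2 is highest in old macrophages. Young macrophages had no reads of Col1a1 and so have no point for that pair.

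Genes that process, degrade or bind collagen were taken from 3 lists. Of 34 measured genes of collagen making, 20 fell and 2 rose in old macrophages against old nonmacrophages, when 33.4% of all genes tested fell and 24.9% rose. The count in either direction is near the share of all genes (58.3%), but a larger share fell and a smaller share rose. Those with the smallest adjusted p among the fallen were Pcolce, an enhancer of procollagen cleavage (log2 difference -2.35, SE 0.14), Fkbp10, a collagen chaperone (-2.77, SE 0.18), and Serpinh1, the collagen chaperone HSP47 (-1.89, SE 0.13). P3h2, a prolyl hydroxylase of type IV collagen, and Adamts3, a procollagen protease, rose (1.22, SE 0.32, and 1.31, SE 0.35). Serpinh1 had 2340 to 3348 normalized reads in old macrophages, against 9581 to 12511 in old nonmacrophages. Of 20 genes of collagen breakdown, 11 fell and 3 rose. Mrc1, a receptor by which macrophages take up collagen fragments, had 5487 to 6717 in old macrophages, against 16.6 to 59.3 in old nonmacrophages (log2 difference 7.57, SE 0.32), and Pepd and Ctsb, enzymes that digest such fragments, rose by 1.06 (SE 0.09) and 1.29 (SE 0.20). Mrc2, the related uptake receptor of fibroblasts, Timp3, a protease inhibitor, and Mmp2, a gelatinase, fell by 1.88, 1.85 and 2.55. Of 10 collagen receptors tested, 6 fell, among them Ddr2 (-2.60, SE 0.16), Ddr1 (-1.24, SE 0.11) and Itgb1 (-0.71, SE 0.09). The other calls among receptors were Lair1, an inhibitory receptor of immune cells (6.07, SE 0.37), Cd36, a scavenger receptor (4.11, SE 0.41), and Oscar, a receptor of osteoclasts and other myeloid cells (2.49, SE 0.65), which rose.

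In the young sort comparison, where 8.68% of all genes were called, 4 of 34 genes of collagen making fell and 0 rose (16 and 1 at an unadjusted p under 0.05; edgeR called 0 in either direction), 4 of 18 tested genes of breakdown fell and 2 rose, and 2 of 9 tested receptors fell and 2 rose. Mrc1 had 7592 and 15205 normalized reads in young macrophages, against 1.07 to 1.78 in young nonmacrophages. Between old and young macrophages, 6 of 34 genes of making rose and 2 fell, close to the 24.9% of all genes called, among them P4ha2, a prolyl hydroxylase subunit with 85.3 to 301 normalized reads in old and none in young macrophages, and Crtap, a partner of prolyl hydroxylation, which fell by 1.89 (SE 0.22). Breakdown genes gave 4 higher and 0 lower in limma (6 and 3 at an unadjusted p under 0.05; edgeR called 3 higher and 0 lower). Mmp13, the interstitial collagenase of mice, averaged 185 ± 59.2 in old macrophages (SD, n = 4) and had no reads in either young library. In nonmacrophages, where 0.971% of all genes were called, limma called between ages 0 genes of making (6 higher and 5 lower at an unadjusted p under 0.05; edgeR called 0), 1 of breakdown, Mrc1 (log2 difference 3.74, SE 0.68, adjusted p = 0.0381), and 0 receptors (3 higher and 1 lower at an unadjusted p under 0.05; edgeR called 0). Cx3cr1, the sort gene, had 26.8 to 102 normalized reads in old and 1.63 to 4.28 in young nonmacrophages. Of 10 macrophage markers, limma called 0 between these groups (1 higher and 0 lower at an unadjusted p under 0.05). The part of macrophages in the level of Mrc1 was not tested.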

How the data were processed

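RNA of sorted mouse cochlear cells was sequenced, and 19 libraries were used, 14 of them sorted whole cochlea. Per the labels' protocols, libraries were made with SMARTer Ultra and Nextera XT kits and run on a HiSeq instrument, low-quality RNA was discarded, and a subset had a repeat run. The submitters' processing notes name TopHat2, Partek, DESeq2 and mm10, with no further versions. The deposited signal values, whose unit no header names, are taken as gene counts over 1 factor per library, since whole reads could be recovered from their steps: 100.0% of values under 10000 reads and 99.89% of all were whole within 0.1 read. No replicate pair was as alike as sampling noise would make 1 library deposited again (chi-square over its degrees of freedom was 50.5 to 920.3).

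The test was limma 3.58.1 (R 4.3.3; mean-variance trend, robust) on log2(value + 1), which understates changes of low genes. It was fitted to the groups compared (the interaction to all 14), over all genes reaching 1 in 2 or more of the libraries fitted, with Benjamini-Hochberg adjustment at 0.05. It was tested on simulated counts with the same spread in all groups, near that of old macrophages. That check does not cover the wider spread of the young groups. Recovery was not required of the young sort comparison, and the interaction was not simulated. Alternatives were edgeR 4.0.16 on recovered reads, quantile or total scaling, quality weights, pseudocounts of 0.1 and 10, no filter or one of 10, a spread shared by all 14 libraries, and leaving out each library. P-values measure the spread between mice of a group, pooled over the groups fitted. A group with no reads in any library adds no spread, so the p-value then rests on the other group and the mean-variance trend. The common dispersion, edgeR's measure of spread, was 2.36 in young and 0.153 in old macrophages. It was 0.861 in young and 0.0624 in old nonmacrophages, so the spread was unequal. Between single libraries, members with at least 20 normalized reads in either were compared at over 2-fold.

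Members, lists and tests were chosen with earlier results of these data known. Values per library were given for 17 members chosen by name and, in each comparison, for up to 4 called members each way with the largest log2 difference, if the higher group averaged 20 or more. Other members given with values were picked after their values were seen. From the lists, up to 3 called genes each way with the smallest adjusted p were named. The 7 columns of the authors' own comparisons were not used. Lengths are those of the longest protein-coding transcript in GENCODE M21.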

Additional observations from a re-analysis of the deposited data

Results flagged for a closer look

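In 6 of 67 groups of 4 libraries examined, 1 library lay far from the other 3 by the gap relative to the range (Dixon's test at 95%); chance flags about 1 group in 20. Replicate 17 of the old macrophages stood apart for 3 genes, with 8272 normalized reads of Col9a3 (the others 1502 to 2442), 81.7 of Col19a1 (the others 212 to 233) and 41.5 of Col28a1 (the others 0 to 0.544). Replicate 19 of the old nonmacrophages had 3259 of Col3a1 (the others 1859 to 1983). Among young nonmacrophages, replicate 6 had 946 of Col6a3 (the others 0 to 139) and replicate 2 had 179.6 of Col19a1 (the others 0 to 10.2).

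The sort difference differed between ages for 13 members by the interaction term in limma. The log2 values, old minus young, were 5.52 for Col1a1, 1.53 for Col1a2, 6.33 for Col5a3, 5.33 for Col9a1, 4.90 for Col9a3, 6.14 for Col11a1 and 5.49 for Col11a2. They were 6.38 for Col6a1, 6.15 for Col8a2, 7.41 for Col16a1, 7.31 for Col19a1, 6.86 for Col23a1 and 5.49 for Col26a1. Over 22 alternatives, the calls of Col16a1 and Col23a1 held in 22, that of Col19a1 in 10 and that of Col11a2 in 7. Col16a1 and Col23a1 had no reads in either young macrophage library. Holding in all alternatives therefore says little about the spread between young macrophages.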

How the results depend on the processing

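The counts of called members rest on few libraries, above all the 2 young macrophage libraries, and depth differs with age. In the old sort comparison the count was 32, 32 to 33 when 1 library was left out, and 18 with the spread shared by all 14 libraries. In the young one it was 15, and 6 with library quality weights, 9 with edgeR, 26 with the shared spread and 8 to 13 when 1 nonmacrophage library was left out. Between old and young macrophages it was 14, and 7 with quantile normalization, 0 with library quality weights and 11 to 30 when 1 library was left out. Between old and young nonmacrophages it was 1, and 0 under a common total, quantile normalization, a pseudocount of 10, library quality weights, a filter of 10, edgeR and the shared spread, 0 to 13 when 1 library was left out and 2 with libraries of over 50 M reads, a setting chosen after seeing the data. The interaction count was 13, and 3 with quantile normalization and 2 with library quality weights. It was 10 to 13 when 1 library other than a young macrophage library was left out. Leaving out 1 young macrophage library leaves 1, which is then assumed to vary like the other libraries fitted. The causes were not tested.

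Reversed signs were of members that did not pass the test in the values reported. Col14a1 between young fractions had -4.40, and 0.21 with edgeR and 1.21 at one end of the range when 1 library was left out. Between old and young macrophages, quantile normalization gave -0.48 for Col4a2, -1.78 for Col2a1, -1.66 for Col10a1 and -0.50 for Col6a3, a pseudocount of 10 gave -0.031 for Col2a1, and edgeR gave -0.022 for Col3a1, -0.36 for Col4a2 and -2.23 for Col2a1. Leaving out 1 library gave -1.24 to 7.21 for Col3a1, -0.49 to 6.57 for Col4a1, -1.38 to 6.40 for Col4a2, -3.40 to 6.33 for Col2a1 and -0.95 to 10.27 for Col14a1, the lowest without young macrophage replicate 9. Without that library Col2a1, Col14a1 and Col4a2 were called lower in old macrophages in limma (adjusted p = 0.00737, 0.0119 and 0.0208). For the interaction it gave -0.36 to 8.09 for Col3a1, -0.055 to 7.01 for Col4a1, -0.16 to 7.62 for Col4a2, -2.63 to 7.09 for Col2a1 and -1.67 to 9.56 for Col14a1, and without replicate 9 those of Col2a1 and Col14a1 were called below 0 in limma (adjusted p = 0.0356 and 0.0365). EdgeR gave -1.32 for Col2a1 and -0.63 for Col14a1. Between old and young nonmacrophages, Col6a3 had -1.32 with edgeR and -0.20 to 3.10 when 1 library was left out, and libraries of over 50 M reads gave -0.88 for Col11a2 and -0.0096 for Col18a1. The range of Col14a1 between young fractions was -10.01 to 1.21. No paired analysis was possible, since each replicate number was used for 1 library only. The labels therefore do not say which fractions came from the same mouse, and the sort tests treated the fractions as unpaired.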
